A study of Mus musculus with 36 samples.

Results

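The immunity-related GTPases (IRG proteins) are interferon-inducible GTP-binding proteins of mouse cells. Transcripts of 8 of their genes, Irgm1, Irgm2, Igtp, Iigp1, Tgtp1, Tgtp2, Ifi47 and Gm4951, were followed in 36 RNA-seq libraries. The genes were chosen by symbol as named members of the family, and all 8 were rows of both count tables, each of which listed 49568 genes. The cells were RAW264.7, an established mouse macrophage line. In 1 table the cells carried the label IFNγ, and in the other Il-4. Both cytokines were used at 5 ng/ml, and every culture was harvested at 72 hours. Each table held 3 groups of 6 libraries, which were PBS, 65–79*SE and 65–79*PE. The peptides were synthetic, were given at 100 µg/ml and corresponded to the third allelic hypervariable region of HLA-DRB1, coded by a rheumatoid arthritis risk allele for 65–79*SE (shared epitope) and by a protective allele for 65–79*PE (protective epitope). The sources used here left it unsettled whether PBS cells also received the cytokine, so contrasts against PBS are given as labelled. If PBS cells received none, each contrast against PBS holds peptide and cytokine together, and they cannot be told apart. A rise or an effect against PBS therefore describes the labelled group and not the peptide alone. All groups were cultures of 1 cell line, and no primary cells were measured. Replicates 1–3 and 4–6 of every group followed different naming schemes in the labels, and they are shown apart as label set 1 and label set 2.

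In GRCm38, 6 of the 8 genes lay on chromosome 11 and 2 on chromosome 18, all annotated as protein coding. Irgm1 (ENSMUSG00000046879, chr11:48861968-48871683, minus strand), Tgtp1 (ENSMUSG00000078922, chr11:48985327-48994172, minus strand), Tgtp2 (ENSMUSG00000078921, chr11:49057194-49064206, minus strand) and Ifi47 (ENSMUSG00000078920, chr11:49076587-49096974, plus strand) sat within 235 kb. Igtp (ENSMUSG00000078853, chr11:58199556-58207591) and Irgm2 (ENSMUSG00000069874, chr11:58199618-58222782) lay together on the plus strand within 23.2 kb. Gm4951 (ENSMUSG00000073555) and Iigp1 (ENSMUSG00000054072) lay within 181 kb of each other on chromosome 18.

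IRG proteins act against microbes that live in vacuoles inside the cell. The regulators Irgm1, Irgm2 and Igtp (also known as Irgm3) carry a GMS motif in the nucleotide-binding site, sit on the cell's own membranes and hold the effectors in the inactive, GDP-bound state. The effectors carry the canonical GKS motif, and Iigp1 (Irga6), Tgtp1 and Tgtp2 (Irgb6) and Ifi47 (Irgd) belong to them. Effectors bind GTP, load onto the membrane of vacuoles such as that of Toxoplasma gondii, and take part in breaking it. The genes are classical targets of IFNγ, which signals through the receptor kinases Jak1 and Jak2. Interferon-responsive promoters are known for GAS elements (gamma-activated sequences) and interferon-stimulated response elements (ISRE).

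Because the members are textbook targets of IFNγ, their promoters were searched for 2 motifs, the GAS consensus TTCNNNGAA and the ISRE core (GAAA, any 2 bases, GAAA), on both strands. The RefSeq promoter window (GRCm38.p6) ran from 250 bases before to 50 bases after the gene start, and 6 of the 8 members had one. The ISRE core was found in 5 of these 6 windows and the GAS consensus in 4 of them. Over all 32851 windows, 3.44% held the ISRE core and 8.3% the GAS consensus. The Ifi47 window held neither motif. The stretches around the matches are shown 5′ to 3′ on the strand of the gene, with matched motifs in capitals:
Irgm1, chr11:48871390-48871495 (minus strand): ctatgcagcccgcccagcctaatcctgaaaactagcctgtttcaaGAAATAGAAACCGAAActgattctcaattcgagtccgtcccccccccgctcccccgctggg
Irgm2, chr11:58214868-58214967 (plus strand): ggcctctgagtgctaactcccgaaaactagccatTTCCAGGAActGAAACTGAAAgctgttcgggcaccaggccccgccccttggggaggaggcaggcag
Igtp, chr11:58199477-58199576 (plus strand): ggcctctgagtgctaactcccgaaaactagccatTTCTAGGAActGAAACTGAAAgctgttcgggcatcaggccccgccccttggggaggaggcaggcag
Tgtp1, chr11:48992269-48992368 (minus strand): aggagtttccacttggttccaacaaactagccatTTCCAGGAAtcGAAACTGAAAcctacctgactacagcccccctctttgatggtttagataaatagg
Tgtp2, chr11:49064228-49064327 (minus strand): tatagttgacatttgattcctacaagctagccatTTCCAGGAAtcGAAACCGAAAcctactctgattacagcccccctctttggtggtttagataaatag

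In Irgm2, Igtp, Tgtp1 and Tgtp2 the GAS match came first and the ISRE core followed it, with 2 bases between them. The GAS match began at -75, -45, -88 and -81 from the RefSeq start of these 4 genes. In Irgm1 the capitals mark 2 ISRE cores that overlap, beginning at -30 and -24. A match describes the letters only, and no binding was measured.

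Libraries of the IFNγ table held from 20.7 to 63.2 M counts, and those of the Il-4 table from 17.05 to 30.6 M. Levels are given as CPM (counts scaled to a common library total, with TMM factors). A count of 0 allows up to 3 counts, which was 0.0541 to 0.166 CPM per library with IFNγ and 0.0949 to 0.172 CPM with Il-4. These limits and all count intervals cover counting error only. The 8 macrophage markers summed to 3919 to 7860 CPM with IFNγ and 3394 to 10939 CPM with Il-4, and markers of B, NK, T, epithelial and fibroblast cells summed to at most 0.545 CPM in the first table and 2.17 CPM in the second. The label sets differed in more than name: replication-dependent histone genes took 0.00722% to 0.0187% of counts in set 1 and 0.236% to 0.629% in set 2 of the IFNγ table, and the 7S RNA gene Rn7s1 at most 0.000791% in set 1 and 5.59% to 7.54% in set 2. With these genes removed before scaling, the calls of the members within each set were unchanged in both tables. All comparisons of treatments were therefore made within a label set. A gene was called at an adjusted p under 0.05 with a fold over 1.5, by edgeR's quasi-likelihood test with Benjamini-Hochberg adjustment over all genes tested. The study describes biological replicates from a pair of independent experiments, and the labels tie no replicate to an experiment or a culture. The label sets may be those experiments, in which case the 3 libraries of a group within a set come from a single experiment. The p-values measure the spread between libraries within groups. Each gene has 1 estimate of that spread, shared by all 18 libraries of a table and so by both sets.

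The 3 libraries labelled 65–79*SE in set 2 of the IFNγ table had IRG transcripts near the level of PBS, unlike every other peptide library of that table. The 8 members together took 59.7 ± 4.97 CPM (SD, n = 3) in PBS, 382 ± 20.99 CPM in 65–79*SE and 422 ± 34.8 CPM in 65–79*PE in set 1. In set 2 the sums were 78.3 ± 7.998 CPM in PBS, 62.0 ± 4.04 CPM in 65–79*SE and 623 ± 53.4 CPM in 65–79*PE. Other targets of IFNγ in these 3 libraries were also near PBS, with Irf1 at a mean of 13.8 CPM against 14.0 CPM and the 11 guanylate binding proteins at 46.2 to 47.1 CPM in sum against 47.2 to 60.7 CPM in PBS of set 2. They thus lacked the rise in IFNγ targets that every other peptide library labelled IFNγ had, and whether their labels or their cytokine treatment were as given was not tested. Values of 65–79*SE in set 2 of this table describe libraries as labelled and are not to be read as an effect of the peptide, and each result that rests on the 65–79*SE libraries is given for set 1 and for set 2. All RNA came from bulk cultures, so fewer responding cells and less RNA per cell cannot be told apart.

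**Figure D1:**
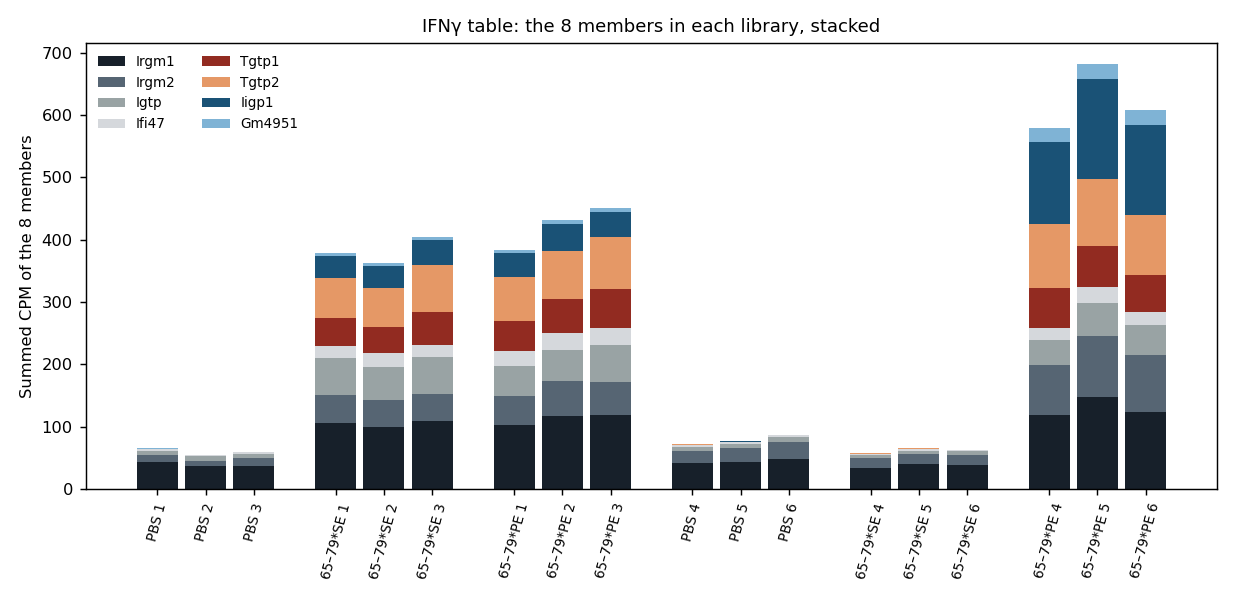
Stacked bars show the CPM of the 8 members in each of the 18 libraries of the IFNγ table, ordered by group and replicate, from 0. The 3 libraries labelled 65–79*SE in set 2 reach the height of the PBS bars, with a mean of 62.0 CPM, whereas the 65–79*SE libraries of set 1 average 382 CPM and the 65–79*PE libraries 422 and 623 CPM.

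All 3 regulators were higher than PBS in both peptide groups of set 1, and in 65–79*PE alone in set 2. They were also the 3 members with the highest level per kb of transcript in PBS. Irgm1, needed for resistance of mice to mycobacteria, was at 42.9, 37.3 and 37.2 CPM in PBS of set 1, at 106, 98.8 and 109 CPM with 65–79*SE and at 102, 118 and 119 CPM with 65–79*PE. In set 2 it was at 41.7, 42.4 and 48.0 CPM in PBS, at 34.1, 40.1 and 39.2 CPM with 65–79*SE and at 119, 148 and 124 CPM with 65–79*PE. The 9 peptide libraries other than 65–79*SE of set 2 all lay above every PBS library, and the 3 libraries of 65–79*SE in set 2 lay below the PBS libraries of their set. Against PBS of set 1 Irgm1 rose 2.67-fold with 65–79*SE (log2 1.42, adjusted p = 3.04e-10) and 2.89-fold with 65–79*PE (log2 1.53, adjusted p = 1.40e-10). In set 2 the rise with 65–79*PE was 2.96-fold (log2 1.56, adjusted p = 9.21e-11).

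Irgm2, which sits on Golgi membranes, was at 10.8, 8.24 and 11.9 CPM in PBS of set 1, at 44.3, 43.3 and 43.0 CPM with 65–79*SE and at 47.2, 55.0 and 52.0 CPM with 65–79*PE. The PBS libraries of set 2 had 18.9, 22.6 and 27.5 CPM, those of 65–79*SE 14.8, 16.4 and 15.3 CPM and those of 65–79*PE 79.9, 97.3 and 91.4 CPM. The groups did not overlap in either set, and their order differed, since 65–79*SE lay between PBS and 65–79*PE in set 1 and below both in set 2. Irgm2 rose 4.22-fold with 65–79*SE in set 1 (log2 2.08, adjusted p = 1.07e-10), 4.98-fold with 65–79*PE in set 1 (log2 2.32) and 3.90-fold with 65–79*PE in set 2 (log2 1.96).

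Igtp, an endoplasmic reticulum regulator needed for resistance to Toxoplasma in mice, was the most strongly raised regulator. It was at 6.67, 6.54 and 6.38 CPM in PBS of set 1, at 59.5, 54.1 and 60.5 CPM with 65–79*SE and at 47.9, 50.9 and 59.3 CPM with 65–79*PE. Replicates 4–6 were at 6.82, 7.17 and 8.03 CPM in PBS, at 5.48, 4.97 and 6.13 CPM with 65–79*SE and at 39.9, 53.3 and 47.5 CPM with 65–79*PE. The peptide groups of set 1 overlapped each other and lay above PBS, while in set 2 the 65–79*SE libraries were the lowest of the 18. The rise was 8.88-fold with 65–79*SE and 8.06-fold with 65–79*PE in set 1 (log2 3.15 and 3.01), and 6.40-fold with 65–79*PE in set 2 (log2 2.68).

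The effectors Tgtp1, Tgtp2 and Iigp1, and Gm4951, were close to the counting limit in every PBS library and were abundant in 9 of the 12 peptide libraries. Tgtp1, coding for an effector first described in T cells, was at 0.168, 0.0606 and 0 CPM in PBS of set 1, at 44.6, 43.0 and 53.3 CPM with 65–79*SE and at 47.8, 53.9 and 61.6 CPM with 65–79*PE. In set 2 it was at 0.0721, 0.276 and 0.0709 CPM in PBS, at 0.238, 0 and 0 CPM with 65–79*SE and at 63.7, 66.4 and 58.7 CPM with 65–79*PE. The libraries labelled 65–79*SE in set 2 overlapped PBS, and all other peptide libraries lay far above it. As a ratio of counts scaled to library size, Tgtp1 rose 594-fold with 65–79*SE in set 1 (95% exact counting interval 301 to 1377), 687-fold with 65–79*PE in set 1 (349 to 1592) and 550-fold with 65–79*PE in set 2 (327 to 1007).

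Its near-identical neighbour Tgtp2 was at 0.196, 0.121 and 0.0934 CPM in PBS of set 1, at 64.2, 62.2 and 74.5 CPM with 65–79*SE and at 70.6, 76.8 and 82.9 CPM with 65–79*PE. The PBS libraries of set 2 had 0.162, 0.355 and 0.142 CPM, those of 65–79*SE 0.572, 0.110 and 0.271 CPM and those of 65–79*PE 102, 107 and 95.5 CPM. The 65–79*PE libraries of set 2 were the highest of the 18, and those labelled 65–79*SE in set 2 overlapped PBS. The count ratio over PBS was 484 with 65–79*SE in set 1 (288 to 885), 554 with 65–79*PE in set 1 (330 to 1013) and 518 with 65–79*PE in set 2 (348 to 809).

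Iigp1, the effector whose GTP cycle and self-assembly are best studied, had 1 count in the PBS libraries of set 1 together. It was at 0, 0.0303 and 0 CPM there, at 35.3, 35.5 and 40.9 CPM with 65–79*SE and at 38.8, 43.5 and 41.2 CPM with 65–79*PE. Replicates 4–6 were at 0.180, 0.197 and 0.0236 CPM in PBS, at 0.143, 0.276 and 0.0338 CPM with 65–79*SE and at 131, 161 and 145 CPM with 65–79*PE. The 65–79*PE libraries of set 2 stood well above all others, and those labelled 65–79*SE in set 2 overlapped PBS. Its count ratio over PBS was 1130 with 65–79*PE in set 2 (counting interval 696 to 1977). In set 1 the ratios rest on that 1 PBS count, at 3761 with 65–79*SE (675 to 148601) and 4155 with 65–79*PE (745 to 164161).

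Gm4951, the neighbour of Iigp1 on chromosome 18, had the lowest level per kb of transcript in the peptide groups of set 1. In CPM it was at 0.0840, 0 and 0 CPM in PBS of set 1, at 5.10, 4.73 and 4.74 CPM with 65–79*SE and at 4.84, 6.70 and 6.09 CPM with 65–79*PE. In set 2 it was at 0.0541, 0 and 0.0472 CPM in PBS, at 0, 0 and 0.0677 CPM with 65–79*SE and at 22.1, 23.7 and 23.3 CPM with 65–79*PE. The 65–79*PE libraries of set 2 were the highest and well apart, and those labelled 65–79*SE in set 2 overlapped PBS. The count ratio over PBS was 163 with 65–79*SE in set 1 (55.6 to 794) and 198 with 65–79*PE in set 1 (67.5 to 964), both against 3 PBS counts, and 570 with 65–79*PE in set 2 (244 to 1758).

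Ifi47, which codes for the effector Irgd and was the only effector above 1 CPM in PBS, was at 4.12, 2.76 and 3.61 CPM in PBS of set 1, at 19.6, 21.2 and 18.8 CPM with 65–79*SE and at 23.7, 26.7 and 28.5 CPM with 65–79*PE. The PBS libraries of set 2 had 3.77, 3.15 and 3.33 CPM, those of 65–79*SE 2.14, 3.42 and 2.37 CPM and those of 65–79*PE 20.4, 25.3 and 21.9 CPM. The 3 groups of set 1 did not overlap, with 65–79*PE highest, and in set 2 the 65–79*SE and PBS libraries overlapped. Ifi47 rose 5.66-fold with 65–79*SE in set 1 (log2 2.50, adjusted p = 3.24e-11), 7.502-fold with 65–79*PE in set 1 (log2 2.91) and 6.53-fold with 65–79*PE in set 2 (log2 2.71).

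**Figure D2:**
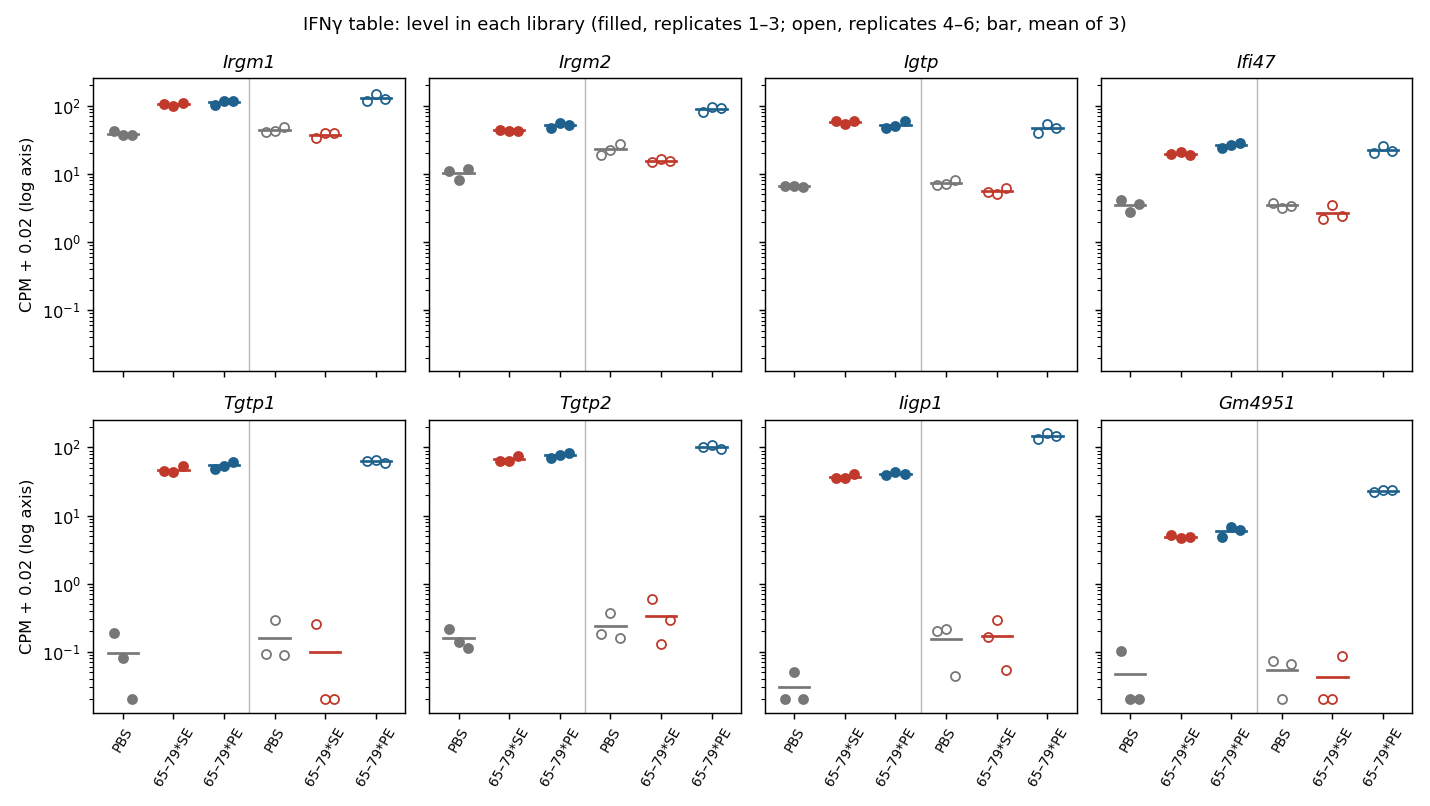
Each panel shows 1 member in the IFNγ table, with a point per library in CPM plus 0.02 on a log axis for the 3 groups in label sets 1 and 2. In set 1 the points of both peptides sit above PBS for all 8 members, and in set 2 the points of 65–79*SE sit near those of PBS while those of 65–79*PE stay above it.

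Counted over the family, all 8 members were called higher than PBS with 65–79*SE in set 1, where 11% of all tested genes were called higher. All 8 were also called higher with 65–79*PE in set 1 (8.38% of tested genes) and in set 2 (6.4%). Iigp1, Tgtp1, Tgtp2 and Gm4951 had few PBS counts and passed the filter through the groups in which they were high. Of the other 4 members, 4 were called higher in each of these contrasts. With 65–79*SE in set 2, none of the 8 was called in either direction, against 2.04% of tested genes; at an unadjusted p under 0.05 there were 4, and DESeq2 called none. Iigp1, Tgtp1, Tgtp2 and Gm4951 had few counts in both groups (9 against 16, 5 against 14, 22 against 24 and 2 against 5) and passed the filter through the groups in which they were high, so the count rests on the other 4, of which 0 were called. Those 4, all with an unadjusted p under 0.05, were Irgm1 (log2 -0.22, 95% interval -0.42 to -0.02), Irgm2 (log2 -0.57, -0.84 to -0.30), Igtp (log2 -0.40) and Ifi47 (log2 -0.41), and each estimate was lower than PBS. Irgm2 had an adjusted p of 0.0159 at 0.674 times PBS, within the fold limit of 1.5. Its call depended on the replicates kept. With replicate 4 of every group left out it was called lower (log2 -0.68, adjusted p = 0.00695), and likewise with replicate 5 left out (log2 -0.63, adjusted p = 0.0444). The count ratios of the low effectors to PBS in that set were 1.01 for Iigp1 (0.393 to 2.42), 0.641 for Tgtp1 (0.181 to 1.88) and 1.64 for Tgtp2 (0.879 to 3.06). Gm4951 had 2 counts in these 3 libraries, and no ratio is given.

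The direct comparison of the peptides depended on the label set. In set 1, 0 of 8 members were called between 65–79*SE and 65–79*PE, where 5.33% of tested genes were called; 1 had an unadjusted p under 0.05, and DESeq2 called 0. The log2 difference, 65–79*SE minus 65–79*PE, was -0.12 for Irgm1 (95% interval -0.31 to 0.08), -0.24 for Irgm2 (-0.48 to 0.01) and 0.14 for Igtp (-0.06 to 0.34). Igtp was the only member with an estimate higher in 65–79*SE. Among the effectors it was -0.21 for Tgtp1 (-0.52 to 0.10), -0.20 for Tgtp2 (-0.42 to 0.02), -0.14 for Iigp1 (-0.39 to 0.10) and -0.28 for Gm4951 (-0.63 to 0.08). Ifi47 differed by -0.41 (-0.67 to -0.14, adjusted p = 0.0284), a fold of 0.755, which was under the fold limit. The intervals leave room for differences of up to 0.63 on the log2 scale in these 7 members, so equality was not shown.

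In set 2, all 8 members were called lower with 65–79*SE than with 65–79*PE, where 8.1% of tested genes were called lower. Of the 4 members with counts in both groups (Irgm1, Irgm2, Igtp and Ifi47), 4 were called. The fold was 0.290 for Irgm1 (log2 -1.79), 0.173 for Irgm2 (log2 -2.53), 0.119 for Igtp (log2 -3.07) and 0.116 for Ifi47 (log2 -3.11), with adjusted p from 7.03e-14 to 1.56e-11. For the effectors that were near 0 in PBS the count ratio was 0.00116 for Tgtp1 (0.000378 to 0.00272), 0.00317 for Tgtp2 (0.00199 to 0.00481) and 0.000893 for Iigp1 (0.000408 to 0.00170). For Gm4951, with 2 counts in 65–79*SE, it was 0.00126 (0.000152 to 0.00455).

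The change of effect between label sets was itself tested as an interaction. Such differences were called at an adjusted p under 0.05 with no fold limit. For 65–79*SE against PBS the effect was lower in set 2 for all 8 members, where 16.8% of tested genes were called lower. Among them were 4 of the 4 members with counts in every group. The log2 effect in set 2 minus that in set 1 was -1.64 for Irgm1, -2.65 for Irgm2, -3.55 for Igtp and -2.91 for Ifi47. For 65–79*SE against 65–79*PE the difference was lower in set 2 for all 8 as well, again with 4 of these 4, beside 16.4% of tested genes. For 65–79*PE against PBS, the difference between sets was called for 0 of 8 members, where 11.5% of tested genes were called. At an unadjusted p under 0.05 there was 1 member, and DESeq2 called 0. Iigp1, Tgtp1, Tgtp2 and Gm4951 had few PBS counts in both sets, so this test could hardly call them. The count rests on the other 4, of which 0 were called and 1 had an unadjusted p under 0.05. The estimates for 65–79*PE were 0.03 for Irgm1, -0.35 for Irgm2, -0.33 for Igtp and -0.20 for Ifi47. When both label sets were pooled with no term for the set, 1 of 8 members was called higher than PBS with 65–79*SE, Tgtp2 (log2 7.57, adjusted p = 0.0472), and 0 were called between the peptides. With a term for the set, 6 of 8 were called higher with 65–79*SE, and 3 were called lower than with 65–79*PE (Irgm1, Irgm2 and Ifi47).

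**Figure D3:**
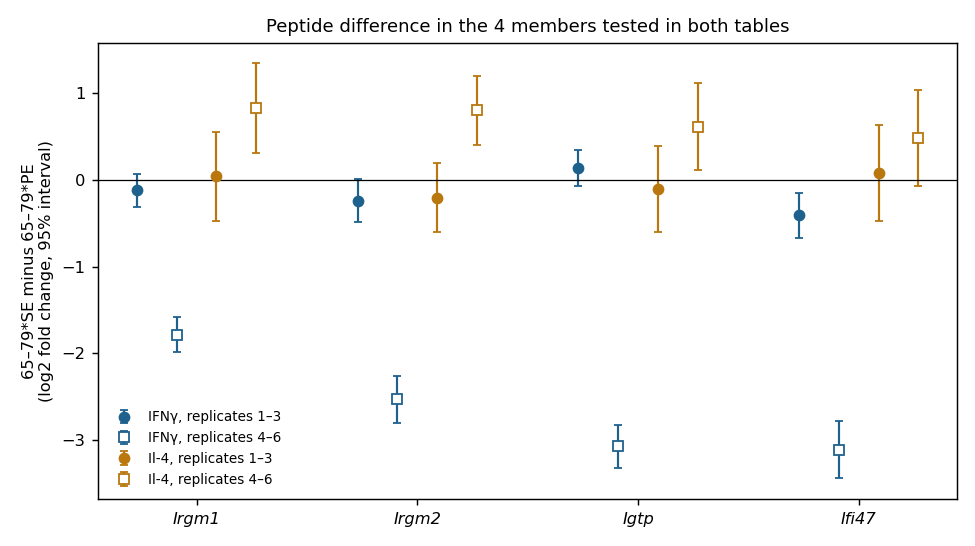
Points give the log2 difference of 65–79*SE minus 65–79*PE with its 95% interval for Irgm1, Irgm2, Igtp and Ifi47 in both tables and label sets, with a line at 0. In the IFNγ table the points lie near 0 in set 1 and between -1.79 and -3.11 in set 2, and in the Il-4 table those of set 2 lie between 0.48 and 0.83.

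Per length of transcript, the order of the members differed between groups. These levels are mean CPM per kb, and genes are named as neighbours that overlap where their ranges over the 3 libraries did. Those of Tgtp1 and Tgtp2 may be too low, since reads that fit both genes may not have been counted. In PBS of set 1, Irgm1 led at 6.73 CPM per kb, followed by Igtp (3.23) and Irgm2 (2.80), which overlapped, then Ifi47 (1.41) and Tgtp2 (0.0466). With 65–79*SE in set 1, Igtp led at 28.7 CPM per kb and Tgtp2 followed at 22.8, ahead of Irgm1 (17.97), Tgtp1 (14.7), Irgm2 (11.8), Ifi47 (8.03), Iigp1 (6.39) and Gm4951 (1.84). No neighbours in that order overlapped. With 65–79*PE in set 1, Tgtp2 and Igtp stood level at 26.1 CPM per kb, and Irgm1 (19.5) overlapped Tgtp1 (16.99). With 65–79*PE in set 2, Tgtp2 led at 34.6 CPM per kb, and the next 5, Iigp1 (25.0), Irgm2 (24.3), Igtp (23.2), Irgm1 (22.4) and Tgtp1 (19.6), each overlapped the next. In the 3 libraries labelled 65–79*SE in set 2 the first 4 genes were those of PBS, with Irgm1 at 6.50, Irgm2 at 4.20, Igtp at 2.73 and Ifi47 at 1.07 CPM per kb.

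**Figure D4:**
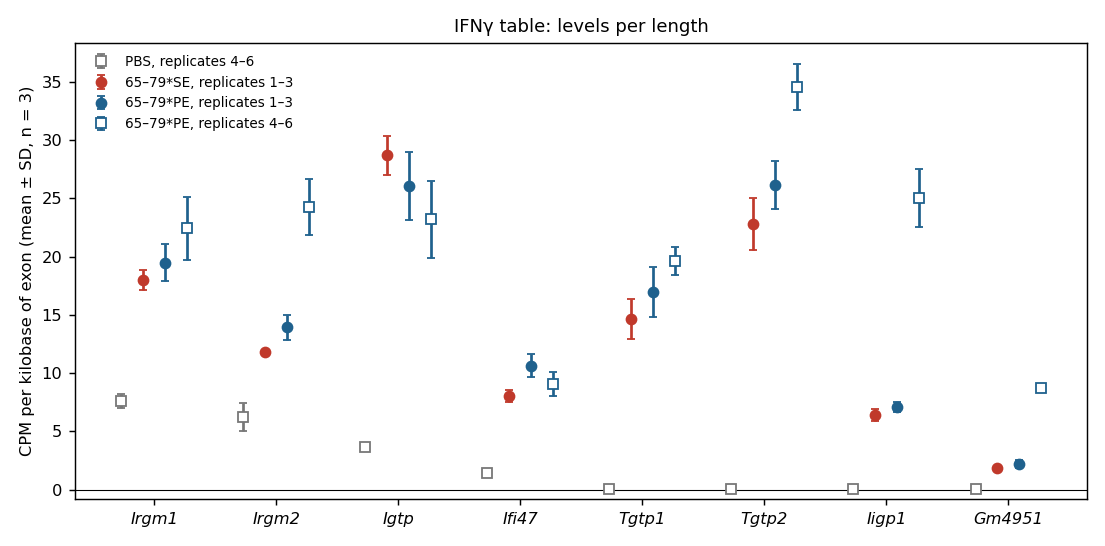
Points give the mean CPM per kb of transcript ± SD (n = 3) of each member in PBS of set 2, in both peptide groups of set 1, and in 65–79*PE of set 2, in the IFNγ table. Irgm1 and Irgm2 lead in PBS at 7.58 and 6.24 CPM per kb, Igtp leads in 65–79*SE of set 1 at 28.7, and Tgtp2 leads in 65–79*PE of set 2 at 34.6, where Iigp1 stands at 25.0.

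The share of family transcript taken by each member shifted likewise. Irgm1 made up 65.5% of the summed CPM of the 8 members in PBS of set 1 and 56.3% in PBS of set 2. Its share was 27.4% with 65–79*SE in set 1, and 26.8% and 20.9% with 65–79*PE in sets 1 and 2. Iigp1 made up 9.74% of the sum with 65–79*SE and 9.78% with 65–79*PE in set 1, and 23.4% with 65–79*PE in set 2.

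The label sets were also compared within a group, a comparison chosen after these values were seen. In the 65–79*PE libraries of the IFNγ table, Iigp1 was higher in set 2 than in set 1 (log2 1.82, adjusted p = 2.41e-11), as were Gm4951 (log2 1.97, adjusted p = 1.38e-09) and Irgm2 (log2 0.80, adjusted p = 3.74e-06). Irgm1 (log2 0.20), Tgtp1 (log2 0.21), Ifi47 (log2 -0.22) and Igtp (log2 -0.17) differed by less than 1.5-fold, and so did Tgtp2 (log2 0.40). Of all tested genes, 56.3% were called between the sets in 65–79*PE, so a difference there was common. In PBS, Irgm2 was higher in set 2 (log2 1.16, adjusted p = 1.17e-07), in a background of 52% of tested genes, and so was Iigp1 (log2 3.29, adjusted p = 0.00772), which had 16 counts in set 2 and 1 in set 1, so that its fitted change depends on the prior count. With histone genes and Rn7s1 removed before scaling, a setting added after these values were seen, the estimates in 65–79*PE were 1.82 for Iigp1, 1.97 for Gm4951 and 0.80 for Irgm2, and those in PBS 1.20 for Irgm2 and 3.33 for Iigp1, all still called. In the Il-4 table, Igtp was lower in set 2 with 65–79*PE (log2 -0.70, adjusted p = 0.0142) and Irgm2 higher with 65–79*SE (log2 0.67, adjusted p = 0.00372). Irgm1 was lower in set 2 in PBS (log2 -0.59, adjusted p = 0.0410). That last call was lost with histone genes and Rn7s1 removed (log2 -0.55, adjusted p = 0.0513). The share over all tested genes is not given for these Il-4 comparisons.

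Reads of some members are shared with near-identical sequence. The longest transcripts of Tgtp1 and Tgtp2 were 99.8% identical over 2810 aligned bases, and 70.3% of the 100-base windows of Tgtp1 and 76.8% of those of Tgtp2 occurred in the other of the pair, so the split between them is uncertain. Tgtp1 took 38.1% to 42.6% of the counts of the pair in the 9 libraries in which the pair was abundant, with 40.4% to 42.6% in set 1 and 38.1% to 38.4% in set 2. The family sum does not depend on that split. Only uniquely aligned reads were counted, so reads from shared windows may have been left out. Levels of Tgtp1 and Tgtp2 and the family sum may thus be too low, and the order per kb and the shares may be affected. Igtp and Irgm2 overlapped by 162 exonic bases on the same strand, and 5.16% of the windows of Igtp and 3.01% of those of Irgm2 were shared. Exons of Tgtp1 overlapped Gm12185 by 223 bases, and exons of Ifi47 overlapped Olfr56 by 111 bases and the antisense pseudogene Gm12188 by 106 bases. Irgm1, Iigp1 and Gm4951 shared no window.

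Other genes of the IRG family were called in the same groups. Of 9 listed, 8 were tested in the IFNγ table. In set 1, 5 of the 8 were called higher and 1 lower than PBS with 65–79*SE, beside 11% of all tested genes called higher. The counts were the same with 65–79*PE, beside 8.38% called higher. The 5 were Gm12250, Gm4841, F830016B08Rik, Gm12185 and Gm5431 under either peptide, and the lower one was Irgq (log2 -0.75 and -0.59), a distant relative. Gm12250, coding for the effector Irgb10, averaged 4.15 CPM with 65–79*SE and 5.38 CPM with 65–79*PE in set 1, and 11.3 CPM with 65–79*PE in set 2. Between the peptides in set 1, 0 of 8 were called, beside 5.33% of tested genes, and 1 had an unadjusted p under 0.05. The median log2 difference was -0.09 beside 0.00 over all tested genes. In set 2, 7 of 8 were called higher with 65–79*PE and 0 with 65–79*SE (2 at an unadjusted p under 0.05), and 7 were lower with 65–79*SE than with 65–79*PE. All tested genes had shares of 6.4% higher with 65–79*PE, 2.04% in either direction with 65–79*SE, and 8.1% lower with 65–79*SE than with 65–79*PE. F830016B08Rik, a further gene of the Iigp1 group, was at 0.395 CPM with 65–79*PE in set 1 and at 16.1 CPM in set 2. Irgc1, which did not pass the filter, had at most 0.0820 CPM in the IFNγ libraries.

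Of 18 tested genes of IFNγ signalling, 10 were called higher and 0 lower than PBS with 65–79*SE in set 1, and 8 higher and 1 lower (Ifngr2, log2 -0.61) with 65–79*PE. Over all tested genes, 11% and 8.38% were called higher in these contrasts, and 5.33% were called between the peptides in set 1. Irf1, the early interferon regulatory factor, averaged 15.2 CPM in PBS, 68.0 CPM with 65–79*SE and 105 CPM with 65–79*PE in set 1. It was 1 of 2 genes of the list called between the peptides in set 1 (log2 -0.63, adjusted p = 3.98e-06), and Jak1, the receptor kinase, was the other, higher with 65–79*SE (log2 0.79). In set 2, Irf1 averaged 14.0 CPM in PBS, 13.8 CPM with 65–79*SE and 116 CPM with 65–79*PE. There 9 of 18 were called higher and 1 lower (Usp18, log2 -0.85) with 65–79*PE, 0 were called with 65–79*SE (6 at an unadjusted p under 0.05), and 9 were lower with 65–79*SE than with 65–79*PE, among them Batf2 (log2 -2.50) and Nlrc5 (log2 -2.02). Shares over all tested genes were 6.4% higher with 65–79*PE, 2.04% in either direction with 65–79*SE, and 8.1% lower with 65–79*SE than with 65–79*PE.

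The guanylate binding proteins (Gbps), a second family of interferon-inducible GTPases that load onto the same vacuoles, showed calls between the peptides in set 1. All 11 were called higher than PBS with either peptide in set 1 and with 65–79*PE in set 2, and 0 with 65–79*SE in set 2 (3 at an unadjusted p under 0.05). Over all tested genes, 11% were called higher with 65–79*SE and 8.38% with 65–79*PE in set 1. For set 2 the shares were 6.4% higher with 65–79*PE and 2.04% in either direction with 65–79*SE. Between the peptides in set 1, 5 of 11 Gbps were called higher with 65–79*SE, against 4.1% of all tested genes, and 0 of 8 IRG members were. The 5 were Gbp2 (log2 1.32), Gbp2b (log2 1.26), Gbp4 (log2 0.89), Gbp10 (log2 0.68) and Gbp3 (log2 0.62). The median log2 difference was 0.46 over the 11 Gbps, -0.21 over the 8 IRG members and 0.00 over all tested genes, and whether the 2 families differ was not tested. The Gbps summed to 597 to 726 CPM with 65–79*SE and 372 to 391 CPM with 65–79*PE in set 1. In set 2 they summed to 46.2 to 47.1 CPM with 65–79*SE and 735 to 868 CPM with 65–79*PE.

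Atg8 conjugation is the ubiquitin-like system by which IRG proteins find their vacuoles. Genes of this system and others of vacuole targeting, listed together, were called at shares that can be read against all tested genes. Of 18 tested, 3 were called higher than PBS with 65–79*SE in set 1, beside 11% of all tested genes, namely the autophagy receptor Sqstm1 (log2 1.03), the ubiquitin-like Atg12 (log2 0.66) and the Atg8 protein Gabarapl1 (log2 0.63), and 1 with 65–79*PE, Sqstm1 (log2 0.75), beside 8.38%. Atg12 was the 1 gene called between the peptides in set 1 (log2 0.59), beside 5.33% of all tested genes. In set 2, the ubiquitin ligase Trim21 (log2 0.64) and Sqstm1 (log2 0.59) were called higher and Map1lc3a (log2 -0.61) lower with 65–79*PE, and Trim21 (log2 -0.78) and Sqstm1 (log2 -0.77) were lower with 65–79*SE than with 65–79*PE. With 65–79*SE against PBS in set 2, 0 of 18 were called and 2 had an unadjusted p under 0.05. Shares over all tested genes in set 2 were 6.4% higher with 65–79*PE, 8.1% lower with 65–79*SE than with 65–79*PE, and 2.04% in either direction with 65–79*SE.

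The genes most like the family in pattern were H2-Ab1 (Pearson r = 0.996), Ciita (0.996), Gm4841 (0.995), Gbp5 (0.990) and Psme1 (0.989), by correlation of log2 CPM with the mean of the 8 members over the 18 libraries of the IFNγ table. The libraries fall into a low and a high group, which all these genes share, so the values describe that split. Among the members, the likeness to that mean ran from 0.933 for Irgm2 to 0.995 for Tgtp2.

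In the Il-4 table the 8 members together reached at most 120 CPM in a library. The sum of the 8 members was 87.4 ± 3.19 CPM in PBS, 62.0 ± 1.24 CPM with 65–79*SE and 62.3 ± 8.12 CPM with 65–79*PE in set 1 (n = 3 each). Set 2 had sums of 64.2 ± 7.98 CPM in PBS, 75.7 ± 38.5 CPM with 65–79*SE and 44.1 ± 0.654 CPM with 65–79*PE. The large SD with 65–79*SE came from replicate 4, which held that maximum, while the lowest of these 3 libraries was at 53.1 CPM. Tgtp1, Tgtp2, Iigp1 and Gm4951 had at most 0.400 CPM in any Il-4 library, did not pass the filter on low counts and were not tested. The other 4 members were tested.

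Irgm1 was at 53.1, 58.1 and 60.004 CPM in PBS of set 1, at 40.7, 43.6 and 40.5 CPM with 65–79*SE and at 36.9, 43.9 and 40.3 CPM with 65–79*PE. Replicates 4–6 were at 36.0, 32.9 and 44.6 CPM in PBS, at 82.5, 33.7 and 31.9 CPM with 65–79*SE and at 27.9, 28.0 and 27.4 CPM with 65–79*PE. Replicate 4 of 65–79*SE stood alone above all Il-4 libraries, and the other 2 of its set overlapped PBS. That library enters the estimate of spread used in every Il-4 contrast of Irgm1, also in set 1. The peptide libraries of set 1 and the 65–79*PE libraries of set 2 lay below PBS without overlap, but Irgm1 was not called between groups within a set (adjusted p from 0.226 to 1.00).

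Irgm2 was at 15.0, 14.6 and 14.9 CPM in PBS of set 1, at 8.32, 6.20 and 7.87 CPM with 65–79*SE and at 7.27, 10.3 and 8.23 CPM with 65–79*PE. In set 2 it was at 9.72, 12.4 and 12.5 CPM in PBS, at 15.8, 9.24 and 10.8 CPM with 65–79*SE and at 6.00, 7.25 and 7.21 CPM with 65–79*PE. Both peptide groups of set 1 and the 65–79*PE group of set 2 lay below PBS without overlap. Irgm2 was called lower than PBS with 65–79*SE in set 1 (log2 -0.99, adjusted p = 0.00352), and with 65–79*PE in set 1 (log2 -0.79, adjusted p = 0.0190) and set 2 (log2 -0.76, adjusted p = 0.0270).

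Igtp was at 9.19, 9.91 and 9.99 CPM in PBS of set 1, at 8.90, 8.41 and 8.71 CPM with 65–79*SE and at 7.84, 11.7 and 8.40 CPM with 65–79*PE. The PBS libraries of set 2 had 6.70, 6.51 and 9.05 CPM, those of 65–79*SE 13.4, 5.96 and 6.98 CPM and those of 65–79*PE 6.44, 5.41 and 5.26 CPM. The 65–79*SE libraries of set 1 and the 65–79*PE libraries of set 2 lay just below PBS without overlap, but Igtp was not called between groups within a set. Ifi47 was at 6.49, 5.31 and 4.98 CPM in PBS of set 1, at 4.26, 4.85 and 3.56 CPM with 65–79*SE and at 2.65, 4.91 and 4.45 CPM with 65–79*PE. Replicates 4–6 were at 7.52, 7.16 and 7.22 CPM in PBS, at 7.70, 3.94 and 3.94 CPM with 65–79*SE and at 4.46, 2.97 and 3.72 CPM with 65–79*PE. Both peptide groups of set 1 and the 65–79*PE group of set 2 lay below PBS without overlap, and Ifi47 was called lower in the last of these (log2 -0.97, adjusted p = 0.0373).

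**Figure D5:**
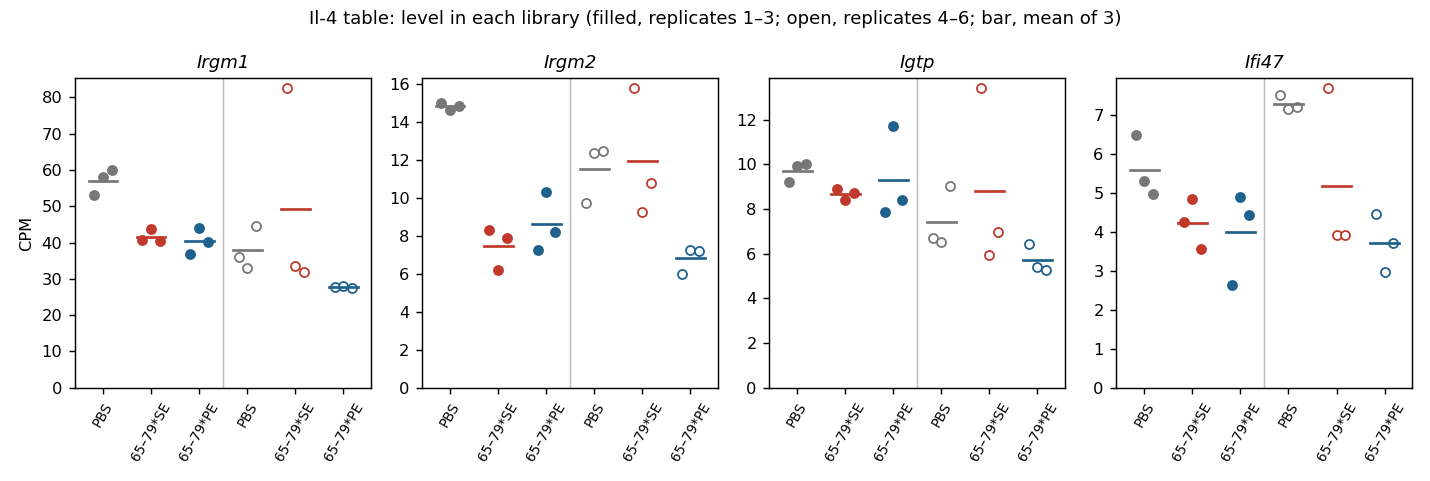
Each panel shows 1 of the 4 tested members in the Il-4 table, with a point per library in CPM for the 3 groups in label sets 1 and 2. Replicate 4 of 65–79*SE stands highest for Irgm1, at 82.5 CPM, and Irgm2 lies lower with both peptides than in PBS in set 1.

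In the Il-4 table, 1 of 4 tested members was called lower with 65–79*SE in set 1, where 4.2% of tested genes were called lower, 1 of 4 with 65–79*PE in set 1 (1.95%), and 2 of 4 with 65–79*PE in set 2 (2.32%). With 65–79*SE in set 2 the count was 0 of 4, where 2.21% of tested genes were called; 0 had an unadjusted p under 0.05, and DESeq2 called 0. With a replicate left out, the estimates stayed lower than PBS but several no longer passed the test. The call of Irgm2 with 65–79*SE in set 1 was lost without replicate 2 or 3 (log2 -0.88 and -1.03, adjusted p = 0.0980 and 0.0729), and that with 65–79*PE in set 1 without replicate 1, 2 or 3 (log2 -0.67, -0.95 and -0.75, adjusted p = 0.101, 0.0668 and 0.255). Between the sets, the effect of 65–79*SE differed for 1 of 4 members, Irgm2 (log2 1.04, adjusted p = 0.0369), where 4.39% of tested genes were called, and this call was lost without replicate 2, 3, 4 or 5 (log2 0.93, 1.07, 0.65 and 1.25, adjusted p = 0.236, 0.218, 0.144 and 0.0828) and without replicate 4 of 65–79*SE alone (log2 0.78, adjusted p = 0.0860). In set 2 the calls of Irgm2 and Ifi47 with 65–79*PE were lost without replicate 5 (log2 -0.75 and -0.84, adjusted p = 0.192 and 0.310) and without replicate 6 (log2 -0.72 and -0.97, adjusted p = 0.138 and 0.137).

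Between the peptides in the Il-4 table, 0 of 4 members were called in set 1 and 0 of 4 in set 2, and 0% of tested genes were called in either set. At an unadjusted p under 0.05 there were 0 in set 1 and 3 in set 2, and DESeq2 called 0 and 1. The log2 difference of 65–79*SE minus 65–79*PE in set 1 was 0.04 for Irgm1 (95% interval -0.47 to 0.56), -0.20 for Irgm2 (-0.60 to 0.20), -0.10 for Igtp (-0.60 to 0.39) and 0.08 for Ifi47 (-0.47 to 0.64). The set 2 difference was 0.83 for Irgm1 (0.31 to 1.35, adjusted p = 0.294), 0.81 for Irgm2 (0.41 to 1.21, adjusted p = 0.206), 0.62 for Igtp (0.11 to 1.12) and 0.48 for Ifi47 (-0.07 to 1.03). Without replicate 4 of 65–79*SE, an alternative added after the values were seen, the same differences were 0.24, 0.55, 0.17 and 0.08. The Gbps summed to 43.2 CPM in that library and to 17.8 and 18.3 CPM in the other 2 of its group, and the part of this in the result was not tested. Of the untested members, Iigp1 and Gm4951 had their highest counts in the same group, with 15 counts of Iigp1 against 1 in 65–79*PE, a ratio of 16.9 (2.60 to 712), and 10 of Gm4951 against 1, a ratio of 11.3 (1.60 to 489). Replicate 4 held 8 of the 15 counts of Iigp1 and 7 of the 10 of Gm4951, and without it 7 against 1 and 3 against 1 remained.

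The related lists were also tested in the Il-4 table, with the same edgeR test. Against PBS, 4.2% of all tested genes were called lower with 65–79*SE and 1.95% with 65–79*PE in set 1. For set 2 the shares were 2.32% lower with 65–79*PE and 2.21% in either direction with 65–79*SE. Of 5 tested IRG genes outside the 8 members, 2 were called lower than PBS with 65–79*SE in set 1, 9930111J21Rik1 (log2 -1.28) and 9930111J21Rik2 (log2 -0.96), and 0 in the other contrasts against PBS. Of 6 tested Gbps, Gbp8 was called higher with 65–79*SE in set 2 (log2 1.24) and Gbp7 lower with 65–79*PE in set 2 (log2 -1.59). Between the peptides in set 2, 0 of 6 Gbps were called, all 6 had an unadjusted p under 0.05, and their median log2 difference was 1.47. Socs1, the feedback inhibitor of Jak kinases, was called higher than PBS with 65–79*SE and 65–79*PE of set 1 (log2 2.42 and 2.40) and with 65–79*PE of set 2 (log2 1.05). Other signalling genes called were Nlrc5 with 65–79*SE in set 1 (log2 -0.59), Jak2 with 65–79*SE in set 2 (log2 0.77) and Stat2 with 65–79*PE in set 2 (log2 -0.62). Lgals3, a galectin that marks damaged vacuoles, was called higher in all 4 contrasts against PBS, by a log2 change of 0.66 to 0.93.

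The peptide difference was last compared between the tables, over the 24 peptide libraries. In set 1 the difference of 65–79*SE minus 65–79*PE changed between IFNγ and Il-4 for 0 of the 4 members with counts in both tables (Irgm1, Irgm2, Igtp and Ifi47), where 3.46% of tested genes were called; 0 had an unadjusted p under 0.05, and DESeq2 was not run on that comparison. The other 4 members had 0 to 3 counts in each peptide group of set 1 in the Il-4 table and hold no value for this test. In set 2 the difference was lower in the IFNγ table for all 4 of the former, where 10.5% of tested genes were called lower. The log2 change in set 2 was -2.62 for Irgm1, -3.33 for Irgm2, -3.68 for Igtp and -3.58 for Ifi47, with adjusted p from 3.96e-10 to 1.97e-06. The mean of 65–79*PE in set 2 lay above that of 65–79*SE in the IFNγ table and below it in the Il-4 table for these 4 genes. The IFNγ side rests on the libraries labelled 65–79*SE that lacked the rise in IFNγ targets, and is not to be read as an effect of the peptide. On the Il-4 side, the differences were smaller without replicate 4 of 65–79*SE, as given above. Set 2 was named by a different scheme in each table. Rn7s1 took 5.59% to 7.54% of its counts in the IFNγ table and 0.00118% to 0.0047% in the Il-4 table. The tables were deposited separately, so a difference between them holds table, libraries and cytokine together.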

How the data were processed

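RNA-seq counts of RAW264.7 libraries were taken from 2 deposited tables, 1 per cytokine, with 18 libraries each. The deposited values were raw counts: the authors ran featureCounts on uniquely aligned reads, with GENCODE annotation of GRCm38.p5, with no normalization. The submitters' processing notes also name DESeq2 1.16.1 and R 3.4.1. The aligner and the strand setting of the counting were not given in the sources used here. No column of the tables was left unmapped.

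Groups came from the sample labels. Counts were fitted in R 4.3.3 with edgeR 4.0.16 (glmQLFit and glmQLFTest, TMM, filterByExpr, Benjamini-Hochberg adjustment), over 16845 genes in the IFNγ table, 14183 in the Il-4 table and 16860 over the peptide libraries of both. Each table was 1 model with a mean per group and label set, and contrasts were taken within a set. Fold changes of genes with few counts depend on the prior count, so these are given as count ratios with exact 95% intervals. CPM per kb used the exonic length in GENCODE M21, matched by symbol, which held 47214 of the 49568 names. The scripts were tested on simulated counts. Other settings tried were DESeq2 1.42.0, no filter, at least 10 counts in every library, each label set alone, pooled label sets, RLE size factors, histone genes and Rn7s1 removed, Tgtp1 and Tgtp2 summed, adjusted p alone, the replicate number as a block, and each replicate left out. All members were named. Of each list, up to 4 called genes with the largest change and at least 1 CPM were named, and other listed genes were named after their values were seen. The values of 1 listed signalling gene are not reported here. The members and lists were chosen with earlier results of these data known.

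Replicates with the same number were taken to be possibly paired where the correlation of their deviations was over 0.1 in every pair. This held for the peptide groups in set 1 of the Il-4 table (0.389, 0.143 and 0.145) and for 65–79*PE with PBS in its set 2 (0.356, 0.190 and 0.395). The main fit held no pairing in any contrast, and the replicate number entered only as the block among the other settings.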

Additional observations from a re-analysis of the deposited data

Results flagged for a closer look

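For the 8 members, the effect of 65–79*SE differed between the label sets of the IFNγ table by a test of the difference (edgeR interaction, adjusted p under 0.05). Against PBS the log2 effect in set 2 minus that in set 1 was -1.64 for Irgm1, -2.65 for Irgm2, -3.55 for Igtp, -2.91 for Ifi47, -11.39 for Iigp1, -9.77 for Tgtp1, -8.18 for Tgtp2 and -7.61 for Gm4951. Against 65–79*PE it was -1.67 for Irgm1, -2.29 for Irgm2, -3.21 for Igtp, -2.71 for Ifi47, -9.93 for Iigp1, -9.47 for Tgtp1, -8.09 for Tgtp2 and -9.18 for Gm4951. For the last 4 genes the low group held few counts, so the size depends on the prior count and is no bound.

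In the Il-4 table the effect of 65–79*SE against PBS on Irgm2 differed between the label sets by 1.04 on the log2 scale (adjusted p = 0.0369), 1 of 4 tested members against 4.39% of tested genes. Without replicate 4 of 65–79*SE it was 0.78 (adjusted p = 0.0860).

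In set 2 the difference of 65–79*SE minus 65–79*PE was lower in the IFNγ table than in the Il-4 table by a log2 value of -2.62 for Irgm1, -3.33 for Irgm2, -3.68 for Igtp and -3.58 for Ifi47. This rests on the libraries labelled 65–79*SE in set 2 of the IFNγ table that lacked the rise in IFNγ targets. The fitted values were -13.72 for Iigp1, -10.60 for Tgtp1, -8.44 for Tgtp2 and -12.53 for Gm4951, whose counts in the Il-4 table were near 0, so these too depend on the prior count.

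Irgm1 in replicate 4 of 65–79*SE in the Il-4 table, at 82.5 CPM, was the 1 library far from the other 5 of its group among 39 groups of 6 checked (Dixon's test on log2 CPM). Chance gives such a library in about 1 of 20 groups.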

How the results depend on the processing

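Counts of called members changed as follows. With at least 10 counts in every library, 4 members remained to be tested, and 4 were called for 65–79*SE and for 65–79*PE against PBS in set 1 and for 65–79*PE against PBS and 65–79*SE against 65–79*PE in set 2 of the IFNγ table. Pooling the label sets without a term gave 1 for 65–79*SE against PBS and 0 for 65–79*SE against 65–79*PE in that table, and 0 for both peptides against PBS in the Il-4 table. Pooling with a term gave 6 and 3 in the IFNγ table, and 2 for 65–79*PE and 0 for 65–79*SE against PBS in the Il-4 table. That fit reversed the set 2 estimates of 65–79*SE against PBS for Tgtp1 (log2 7.16), Ifi47 (1.38), Igtp (1.76) and Gm4951 (5.93), because it averages set 2 with set 1. The estimates of Irgm1 (0.68) and Irgm2 (0.91) changed sign as well, but were not called. Adjusted p alone gave 1 for 65–79*SE against 65–79*PE in set 1 and 1 for 65–79*SE against PBS in set 2. Leaving out a replicate gave 0 to 1 for 65–79*SE against PBS in set 2 of the IFNγ table. In the Il-4 table it gave 0 for 65–79*PE and 0 to 1 for 65–79*SE against PBS in set 1, 0 to 2 for 65–79*PE in set 2 and 0 to 2 for the difference between sets of 65–79*SE against PBS. With no filter, that difference was called for 2 members, that of 65–79*SE against 65–79*PE for 1, and 65–79*SE against 65–79*PE in set 2 for 2. DESeq2 called 1 in that last contrast, label set 2 alone called 0 for 65–79*PE against PBS, and without replicate 4 of 65–79*SE the difference between sets was called for 0. Leaving out replicate 6 lost the call of Tgtp1 in the set 2 difference between tables (log2 -6.74), which rests on near-0 counts.

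With the replicate number as a block, counts were those of the fit without it in all contrasts (8 of 8 for 65–79*SE against 65–79*PE in set 2 of the IFNγ table), and it changed no call of a count, also where the pairing held. Elsewhere same-numbered replicates share only a number. Over single members, 1430 of 1496 values kept their side of the threshold, and these had no change of direction where a value was called. Changes of direction in values that were not called are included in the 1430. Of the rest, 17 gained a call, 45 lost one, and 4 were reversed. The reversed values were those of Tgtp1, Ifi47, Igtp and Gm4951 given above for the fit pooled with a term. Depth limits the effectors in PBS and Il-4 libraries, where 3 counts were 0.0541 to 0.172 CPM.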
